A study of Canis lupus familiaris with 109 samples.

Results

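The regions described here are a pair of windows of the dog genome that hold candidate imprinted loci: chromosome 14 from 20 to 20.3 Mb, where PEG10 and SGCE are expected, and chromosome 18 from 45.5 to 46.8 Mb, where IGF2, H19 and KCNQ1 are expected (CanFam3.1 coordinates). The windows were chosen by position with the methylation levels of the chromosome 14 window already known, so these levels are given as a description and not as a test. All cytosine positions listed in the windows are members: 214 on chromosome 14 and 437 on chromosome 18, together 651 of the 304191 positions of the main table. A second table, made from repeat captures, lists 582 and 4683 positions in the same windows, 5265 of its 1812277.

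The study measured DNA methylation in whole blood of domestic dogs by bisulfite sequencing after capture of selected regions. In this assay unmethylated cytosines are converted and read as thymine, so that the fraction of reads with cytosine at a position is its methylation level. The labels place 94 samples in the main table, from dogs aged 0.134 to 14.5 years (median 6.37), with 30 labelled F, 31 labelled M and 33 without a recorded sex. They list 6 repeat captures from dogs aged 0.384 to 15.5 years, 1 sample used only beside these repeats and 8 samples of low coverage, 109 samples in all, every one of whole blood with no treatment named. The main table holds 95 libraries and the repeat table holds 7, under codes that match no label. No library could therefore be given an age or a sex, and all values below are over libraries. The files hold fractions without read counts, so the depth behind a value is unknown and no interval from counting can be given.

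Imprinted genes are expressed mainly from the copy inherited from a single parent, and the parental copies differ in DNA methylation at control regions that are set in the germ line and kept in body tissues, blood included. PEG10, a gene derived from a retrotransposon that is needed for placental development, and SGCE, which encodes epsilon-sarcoglycan, start next to each other in opposite directions and are both expressed from the paternal copy in mammals. In the other locus, the fetal growth factor IGF2 is expressed from the paternal copy and the non-coding RNA H19 from the maternal copy, and a neighbouring domain around KCNQ1 holds CDKN1C, an inhibitor of cell division expressed from the maternal copy. A fraction near the middle of the scale in blood can reflect methylation of a single parental copy or a mixture of methylated and unmethylated cells, and without reads assigned to alleles these cannot be told apart here.

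Gene identity could not be checked at the level of positions. The gene table at hand is on the assembly UU_Cfam_GSD_1.0, and no position of either window was placed in a gene, exon, intron or UTR. On that assembly 9 of 9 genes looked for were found on chromosome 14 and 22 of 23 on chromosome 18, KCNQ1OT1 not being listed under that symbol. SGCE and PEG10 were neighbours with 0 annotated genes between them, flanked by CASD1 and PPP1R9A. On chromosome 18 the order ran from MRPL23 through H19, IGF2, INS, TH, ASCL2, CD81 and KCNQ1 to CDKN1C, PHLDA2 and NAP1L4. The names are thus those expected from synteny, and the text refers to the regions by their coordinates.

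In the main table most listed positions of the chromosome 14 window were intermediate in methylation, whereas most of those in the chromosome 18 window were not. A position's level is its median over the 95 libraries, and levels from 0.3 to 0.7 are called intermediate. On chromosome 14, 147 of 214 positions (68.7%) were intermediate, 61 were over 0.8 and 1 was under 0.1. On chromosome 18, 52 of 437 positions (11.9%) were intermediate, 219 were over 0.8 and 107 were under 0.1. Of all positions of the main table, 7.09% were intermediate, 32.8% were over 0.8 and 50.6% under 0.1, against 50.1% over 0.8 and 24.5% under 0.1 in the chromosome 18 window. In the repeat table the share was 48.6% on chromosome 14 and 9.61% on chromosome 18, against 5.14% of all its positions. Few members lay close to a bound: within 0.02 of 0.3 or 0.7 there was 1 position just outside on chromosome 14, and on chromosome 18 there were 2 just inside 0.3, 2 just inside 0.7 and 3 just outside 0.7.

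Nearly all intermediate positions of the chromosome 14 window lay in a single stretch from 20120066 to 20123013, 2948 bp long. The stretch holds 147 listed positions, of which 146 had a median from 0.3 to 0.7. The exception, at 20122519, had a median of 0.18 with libraries from 0 to 0.6. Of the 147 medians, 123 were under 0.5, 13 were at 0.5 and 11 were above it, the highest at 0.53. In the table of single values, 86.1% of all library and position combinations lay from 0.3 to 0.7, 0.723% under 0.1 and 0.0358% over 0.9, so that intermediate medians came from intermediate values within libraries and not from a mixture of low and high libraries.

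**Figure D1:**
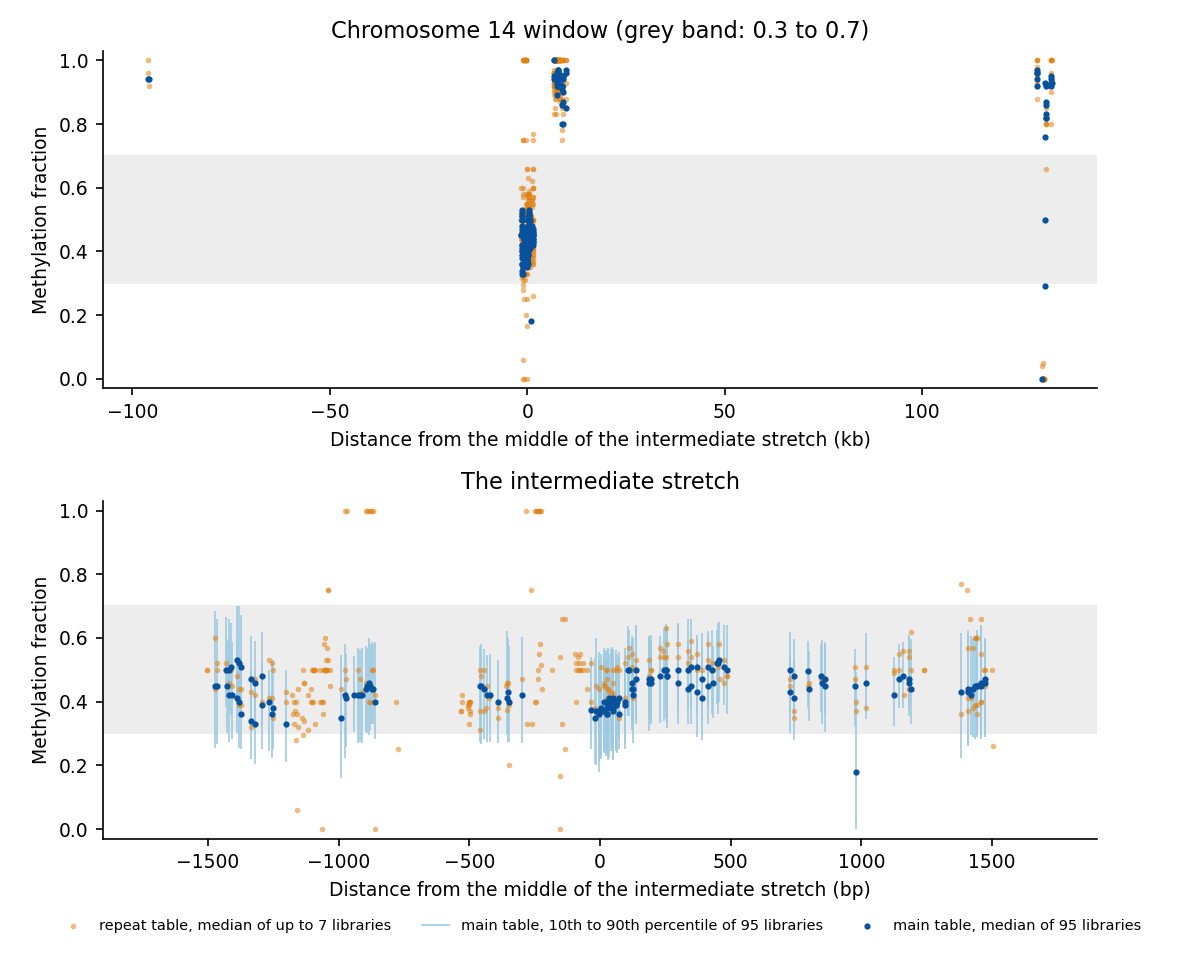
Methylation fraction of every listed position against its distance from the middle of the intermediate stretch, in kb over the whole chromosome 14 window (top) and in bp within the stretch (bottom). Blue points are medians of the 95 libraries of the main table, light blue lines their 10th to 90th percentiles, and orange points medians of the repeat table; blue medians in the stretch lie from 0.18 to 0.53, and most positions on either side lie over 0.8.

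Taken as a mean over its 147 positions, the stretch had a level of 0.324 in the lowest library (coded L3_A5), 0.437 in the median library and 0.542 in the highest (coded L2_A7). The quartiles were 0.413 and 0.462, and the second lowest and second highest libraries were at 0.349 and 0.538. The highest libraries held many values treated as filled in. Over the whole main table these made up 6.28% in L2_A7 and 8.70% in the second highest, SCE_CF_Pilot_4_S4. The median per library was 0.0404%. Other libraries did not follow this: L2_A8 was at 0.524 with 0.0168%, and L1_A7, with 22.4%, was at 0.454. In 89 of the 95 libraries the level was under 0.5. The medians of the 10 code prefixes, which may mark preparation sets, ran from 0.410 to 0.459. As a check on the second element of the code, the 16 libraries with A1, A3 or A4 had a median of 0.453 and the other 79 had 0.434, with overlapping ranges.

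Outside the stretch most listed positions of the chromosome 14 window were methylated in the main table. Of the 67 other positions, 61 were over 0.8 and 1 was under 0.1, and their median level was 0.93. The edges of the stretch are not covered: the nearest listed position before it is 94390 bp away at 20025676, with a median of 0.94, and the nearest after it is 5291 bp away at 20128304, with a median of 1. The next run, 23 positions from 20129127 to 20129370, had levels from 0.903 to 0.973 with a median of 0.940 and did not overlap the stretch in any library. A run is a series of at least 10 listed positions with gaps of up to 100 bp.

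A second change of level lies further on in the window. The run of 10 positions from 20252688 to 20252926 was at 0.751 in the median library, 0.609 in the lowest and 0.90 in the highest. Its first position was at 0.29 and its second at 0.5, while the other 8 lay from 0.76 to 0.93. In the repeat table, a run of 32 positions from 20252093 to 20252335, just before it and with no position in the main table, was unmethylated in each of the 7 libraries, from 0.00387 to 0.0181. Here an unmethylated run lies just before a methylated one. The intermediate stretch cannot be compared with this, since its edges are not covered. Its nearest listed positions in the main table, both methylated, are 94390 bp before and 5291 bp after it.

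By runs, the stretch divides into 6 intermediate runs with 138 positions and 9 positions between them. Intermediate here means that the median over libraries of the run's mean fraction lies from 0.3 to 0.7, which held for 6 of 8 runs on chromosome 14, 1 of 12 on chromosome 18 and 4.07% of the 7274 runs of the main table. All 7 were uniform, with at least 80% of their positions intermediate, which held for 0.715% of all runs. The 6 runs on chromosome 14 had medians from 0.429 to 0.461, and these differences were smaller than the spread of any of the runs over libraries.

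The runs differed in how far libraries spread. The longest, 68 positions from 20121504 to 20122024, ran from 0.346 to 0.579 with a median of 0.429, and all 95 libraries were from 0.3 to 0.7. The run of 10 positions from 20122267 to 20122402 ran from 0.333 to 0.582 with a median of 0.461, again with all 95 libraries in that range. The run of 24 positions from 20120066 to 20120340 had a median of 0.445 and reached down to 0.176 in L3_A5, the next lowest library being at 0.291. These 3 runs had only 2 libraries under 0.3 among them. They are also the runs that hold the CpGs listed on both strands, 30, 5 and 9 in the order given. Over all pairs of positions in a run, the median of Pearson's r across libraries was 0.152, 0.0637 and 0.180.

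The other 3 were wider. The run of 14 positions from 20120547 to 20120678 ran from 0.104, again in L3_A5, to 0.639 with a median of 0.435, and 11 libraries were under 0.3. The run of 10 positions from 20121081 to 20121240 ran from 0.176 to 0.722 with a median of 0.433. The widest, 12 positions from 20122921 to 20123013, ran from 0.163 to 0.758 with a median of 0.441, with 12 libraries under 0.3 and 3 over 0.7. L7_A14, the highest library in this last run, was the lowest in the longest run. The 3 wider runs hold no CpG listed on both strands. Over all pairs of positions in each, the median r was 0.702, 0.581 and 0.895 in the order given. The difference in spread thus goes together with which strands are listed, and its cause was not tested.

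Within the longest run the level was not flat. With its positions divided in order into 4 parts of 17, the medians over libraries were 0.373, 0.403, 0.468 and 0.490. The third part was higher than the first in 87 of 95 libraries and the fourth in 83. Both strands were listed in each part, with 9, 9, 7 and 11 forward positions. The division was made after the values were seen, and no test is given.

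Levels of the runs of the stretch were weakly related across libraries. Over 15 pairs of chromosome 14 runs, Pearson's r across 95 libraries had a median of 0.102 and ran from -0.081 to 0.365. After Benjamini-Hochberg adjustment over the 28 relations computed, 2 of the 15 had an adjusted p under 0.05 (two-sided permutation test, 100000 resamples). The first and second runs, 207 bp apart, had r = 0.365 (p = 0.00031, adjusted p = 0.00812) and Spearman's rho = 0.290 (p = 0.00405, adjusted p = 0.0378). Leaving out the 2 most extreme libraries on the x axis gave r = 0.220, and within prefixes r was above 0 in 8 of 10, with a median of 0.381. The first and last runs, 2581 bp apart, had r = 0.328 (p = 0.00099, adjusted p = 0.00924) and rho = 0.388 (p = 0.00016, adjusted p = 0.00448). There r was 0.345 with the 2 most extreme libraries left out and above 0 in 7 of 10 prefixes, with a median of 0.364. With medians in place of means over a run's positions, 3 of the 15 relations had an adjusted p under 0.05 and the median r was 0.0476. With the mean of each prefix taken out, 1 of the 15 relations kept an adjusted p under 0.05, and with the mean of each second code element taken out, 0 did. It is not known whether any of the libraries share a dog.

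The runs were also compared with the library as a whole. The mean of each library over the 21366 intermediate positions outside the windows had a median of 0.516 and ran from 0.481 to 0.547. Of the 7 runs, 1 had a relation to it with an adjusted p under 0.05: the third run of the stretch, from 20121081, with r = 0.348 (p = 0.00058, adjusted p = 0.00812) and rho = 0.341 (p = 0.00099, adjusted p = 0.0139). With the 2 most extreme libraries left out r was 0.302, and within prefixes it was above 0 in 8 of 10, with a median of 0.484. With the mean of each second code element taken out, 0 of the 7 passed.

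Single positions moved together most closely over short distances on the same strand. In the stretch, pairs on the same strand had a median r of 0.886 at 2 to 10 bp (72 pairs) and 0.736 at 11 to 50 bp. The value dropped to 0.465 for pairs 51 to 100 bp apart and to 0.233 for pairs more than 100 and up to 200 bp apart. Pairs on opposite strands had a median r of 0.155 at 2 to 10 bp (39 pairs) and 0.111 at 11 to 50 bp. The 2 strands of a single CpG, 44 of which were listed on both, had a median r of 0.119. A read covers neighbouring positions of its own strand, whereas opposite strands come from different reads, and depth and reads are shared between positions in ways the files do not show.

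Pooled over the rest of the main table, intermediate positions had other values. Their same-strand pairs had a median r of 0.671 at 2 to 10 bp, below that of the stretch. Their opposite-strand pairs had 0.442 at 2 to 10 bp and 0.436 at 11 to 50 bp, and the strands of single CpGs had 0.271 (1610 CpGs), all above the stretch. For pairs more than 200 and up to 500 bp apart the median was still 0.409 on the same strand, against 0.0665 in the stretch. These are descriptions across pairs of positions, which share libraries and are not independent, and no test of the difference was made. Some single runs elsewhere had similarly low values. Over all pairs of positions in a run, with strands not separated, the median r was 0.152 in the longest run of the stretch, 0.164 in a run of 34 positions from 6449645 on chromosome 14 and 0.229 in a run of 62 positions from 9466434 on chromosome 22. Over the 45 uniform intermediate runs outside the windows it ran from 0.0798 to 0.862, and over the 7 of the windows from 0.0637 to 0.895. The spread of single positions was similar, with a median SD over libraries of 0.118 in the stretch and 0.127 elsewhere.

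**Figure D2:**
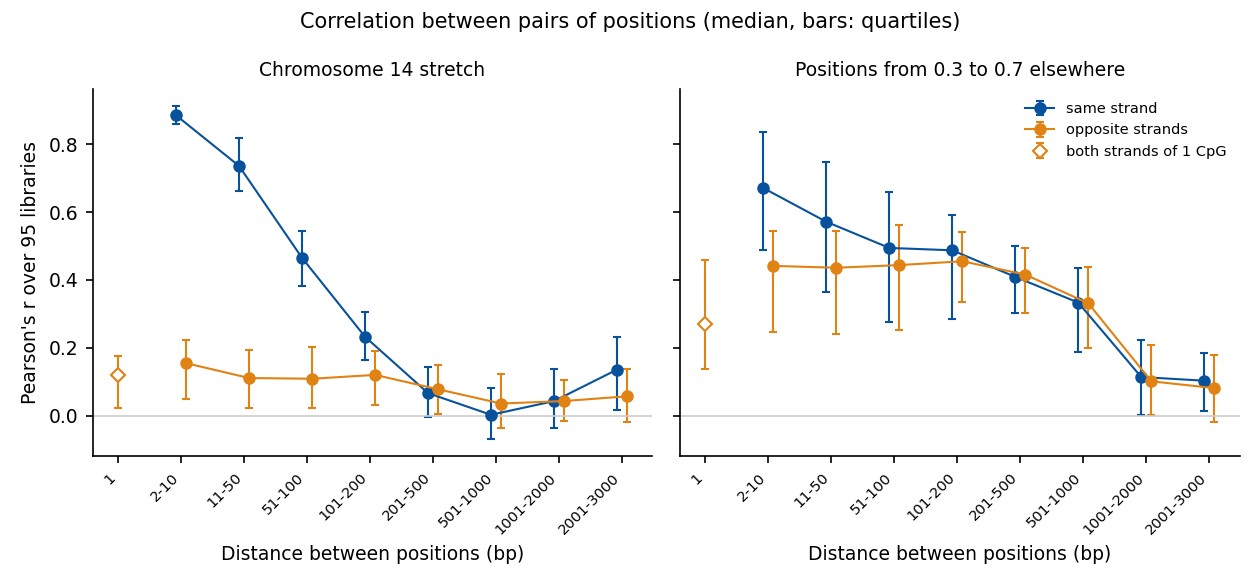
Pearson's r across 95 libraries between pairs of positions, by distance in bp and strand, in the chromosome 14 stretch (left) and at intermediate positions elsewhere (right); points are medians over pairs and bars are quartiles. In the stretch the same-strand value falls from 0.886 to 0.0665 from the bin of 2 to 10 bp to the bin that ends at 500 bp, while opposite strands stay at or under 0.155.

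The levels of the strands in the stretch were close. The 68 forward positions had a median of 0.465 and the 73 reverse positions 0.43. At the 44 CpGs listed on both strands the medians differed by 0.035 in absolute value at the median, and by at most 0.15.

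The stretch was the longest of its kind in the main table. When uniform intermediate runs less than 1000 bp apart were joined, the 52 such runs of the table formed 39 groups with a median length of 171 bp. The stretch measured 2948 bp, and the next longest, on chromosome 14 from 6448174 to 6450052, measured 1879 bp. All 7 uniform runs of the windows had a median under 0.5, against 23 of the 45 elsewhere. Of these 7, 6 are parts of the stretch itself, so they do not count as separate loci. The share of length and positions depends on what was captured, and the windows had been chosen with these levels in view.

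On chromosome 18 the intermediate positions were scattered. The 437 positions form 93 stretches, of which 25 hold a single position, and 28 contain at least 1 intermediate position. Of the 93, 50 had a level over 0.8, 13 under 0.1 and 13 from 0.3 to 0.7, and 11 of the last 13 hold 4 or fewer positions. The same shares over all stretches of the main table are not given here. These counts therefore describe the window and do not set it apart from the rest. The remaining 2 of the 13, which are the stretches of 5 or more positions with all medians intermediate, lie 4744 bp apart. Together they hold 20 of the 52 intermediate positions.

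The first holds 7 positions from 46208227 to 46208303. Its level was 0.494 in the median library, 0.247 in the lowest and 0.737 in the highest. The second is the 1 intermediate run of the window, 13 positions from 46213047 to 46213232 (186 bp), at 0.415 in the median library, 0.254 in the lowest and 0.604 in the highest. In 92 of 95 libraries this run was from 0.3 to 0.7, and in 3 it was lower. Across libraries the levels of these neighbours had r = -0.026, given as a description.

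The nearest run on each side of them was methylated. The run before, 15 positions from 46206386 to 46206635, had a median of 0.870 (0.799 to 0.948), and the run after, 10 positions from 46297238 to 46297357, had 0.910 (0.809 to 0.976). Neither overlapped the intermediate run in any library. The edge after the intermediate run is not covered closely. Between it and the run after, the main table lists only 3 positions, from 46266334 to 46266368, at 0.793. In the repeat table, 10 positions from 46226899 to 46227006 were at 0.931. The 13 positions of the intermediate run are listed on the reverse strand where a strand could be assigned (9 of 13). Same-strand pairs in it had a median r of 0.838 in 5 pairs up to 10 bp apart, 0.632 in 13 pairs 11 to 50 bp apart and 0.330 in 16 pairs 51 to 100 bp apart.

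**Figure D3:**
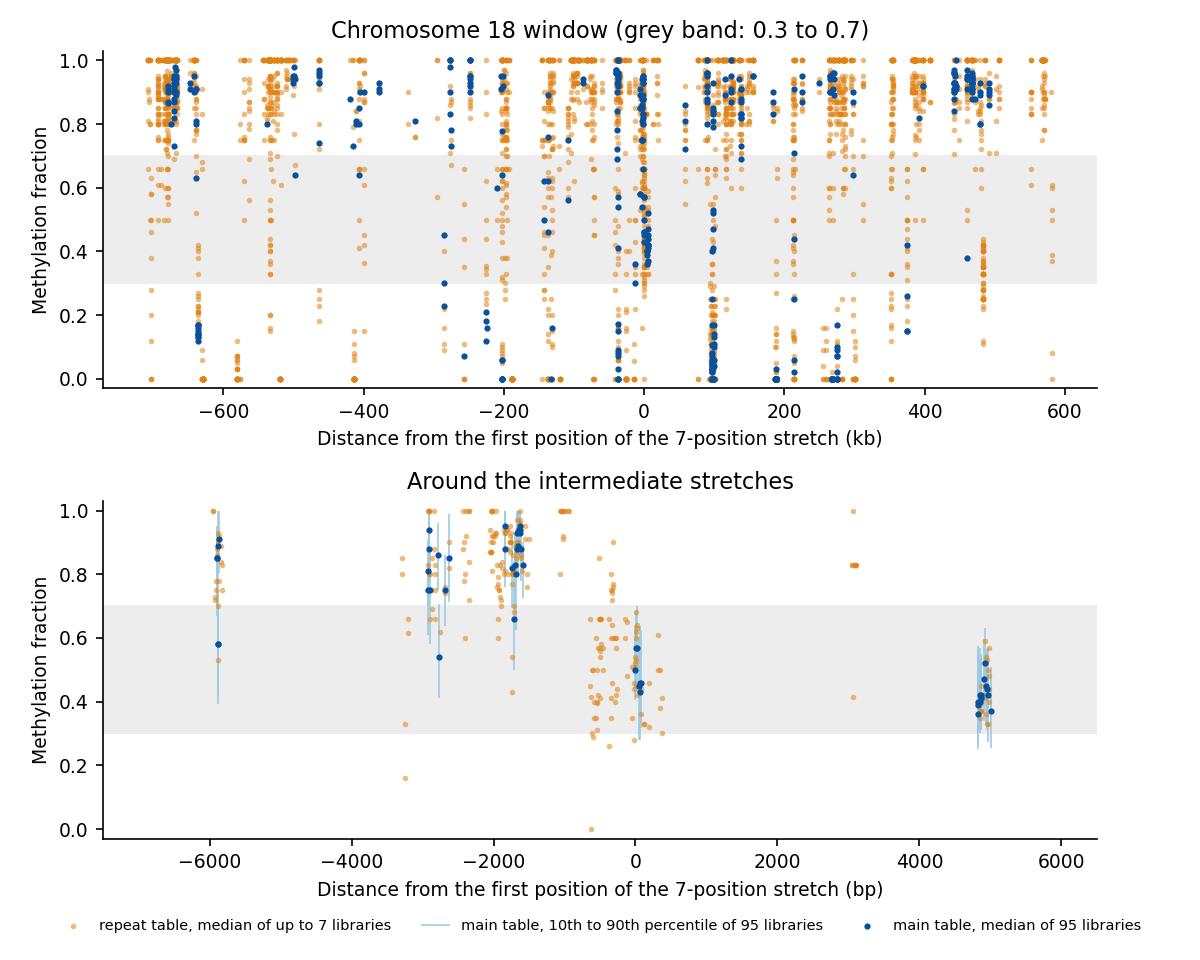
Methylation fraction of every listed position of the chromosome 18 window against its distance from the first position of the 7-position stretch, in kb over the window (top) and in bp around the stretch (bottom), with symbols as in the profile of chromosome 14. Around 0 bp and again 4744 bp past the end of that stretch the medians fall in the grey band from 0.3 to 0.7, and the main-table positions before them lie mostly over 0.7.

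No relation between the chromosome 18 run and the chromosome 14 runs passed the test. Over the 6 pairs, r had a median of 0.000844 and ran from -0.075 to 0.192, and 0 of 6 had an adjusted p under 0.05 by the permutation test, for r or for rho. None of the 6 had an unadjusted p under 0.05 either, the smallest being 0.0633. The relation of this run to the library mean had r = -0.160 (p = 0.12, adjusted p = 0.335).

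Most other chromosome 18 runs were at the ends of the scale. The longest run over 0.8, 13 positions from 45538092 to 45538451, had a median of 0.890 with libraries from 0.786 to 0.948, and the 19 positions from 46676271 to 46676539 had 0.928 with libraries from 0.868 to 0.954. The longest run under 0.1 in bp, 17 positions from 46305348 to 46305579, had a median of 0.0835, with libraries from 0.0229 to 0.284. The run with most positions under 0.1, 30 from 46395673 to 46395847, had a median of 0.00367, with libraries from 0 to 0.268. Some values in these runs equal 1.0 although the position's median was under 0.05: 13 in the first and 51, in 15 libraries, in the second. With such values set to 0.01 the highest library fell to 0.195 in the first and 0.0157 in the second.

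In the main table a run of low partial methylation stood between these classes. It holds 11 positions from 45571480 to 45571620, all with medians from 0.12 to 0.17. Its level was 0.148 in the median library, 0.0309 in the lowest and 0.563 in the highest, and 13 libraries were from 0.3 to 0.7. The repeat table gave a higher level over a larger set of positions. There the run from 45571480 to 45571621, with 16 positions of which 11 are in the main table, was at 0.286 (0.1837 to 0.3525). Of these 16 positions, 5 were intermediate. No level over the 11 shared positions is given, so the difference may lie in the positions added.

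At 2 positions of the chromosome 18 window, libraries fell near 0, near the middle and near 1, a pattern that a sequence variant at the cytosine would also give. At 46171352, 18 libraries were under 0.12, 40 from 0.3 to 0.7 and 27 over 0.88. At 46668549 the numbers were 37, 40 and 8. Genotypes were not tested. No position of the chromosome 14 stretch (0 of 147) or of the chromosome 18 run (0 of 13) had this pattern, and over the whole table it was found at 308 of 304191.

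The repeat captures listed the chromosome 14 stretch more densely and gave similar levels. In the repeat table it spans 314 positions from 20120036 to 20123041, of which 282 (89.8%) had an intermediate median. All 147 positions shared with the main table did so, the exception at 20122519 included, and so did 135 of the 167 others (80.8%). Of the remaining 32, 11 were under 0.3 and 21 over 0.7. Among these 21, 16 had a median of 1 and 19 had values in only 4 or 5 of the 7 libraries.

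The level of the stretch was 0.474, 0.462, 0.514, 0.463, 0.402 and 0.446 in the libraries coded CHYB6 with numbers 1, 5, 6, 7, 8 and 10, and 0.536 in the Pilot library with number 1. All 7 lie within the range of the 95 libraries of the main table, although these levels are over 314 positions and that range is over 147. Levels over the same 147 positions are given further below. By runs, 5 of 14 on chromosome 14 were intermediate, against 6.53% of the 47522 runs of the repeat table, and all 5 were uniform, against 0.646%. On chromosome 18, 20 of 169 runs were intermediate and 2 of these were uniform, while 108 were over 0.8 and 26 under 0.1.

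In the repeat table the intermediate region of chromosome 18 was longer. A run of 52 positions from 46207583 to 46207960, with 0 in the main table, was at 0.496 in the median library (range 0.439 to 0.643), with 76.9% of its positions intermediate. It is followed by 26 positions from 46208082 to 46208418 at 0.513 (0.398 to 0.625), which span the 7-position stretch and list 3 of its positions. Further on, the 22 positions from 46213078 to 46213207 were at 0.448, with 6 of the 7 libraries from 0.384 to 0.575 and the CHYB6 library of number 5 at 0.188. The last 2 of these are the uniform runs of the window. The run before them, 11 positions from 46207165 to 46207289, was at 0.892.

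A different intermediate run, 58 positions from 46691017 to 46691233 with 0 in the main table, was lower. Its level was 0.331 in the median library (range 0.183 to 0.389), and 62.1% of its positions were intermediate.

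Libraries of the repeat table share a number with a Pilot library, which may mark the same dog. By the labels, each repeat capture has exactly the age of another sample. That sample is in the main table or is the 1 used only beside the repeats. The labels thus pair the repeats with earlier captures, but they do not say which number belongs to which pair. In the chromosome 18 run, over the 9 positions in both tables, the Pilot levels were 0.601, 0.404, 0.482, 0.522, 0.432 and 0.433 for numbers 1, 5, 6, 7, 8 and 10, and the CHYB6 levels were 0.597, 0.35, 0.462, 0.577, 0.444 and 0.487. Over these positions number 1 was the highest and number 5 the lowest in both. Over all 22 positions of the run in the repeat table, CHYB6 number 7 was the highest at 0.575 and number 5 the lowest at 0.188. Over the 9 shared positions the differences lay from -0.0544 to 0.0544. In 6 of 6 pairs they were smaller than the median difference to other libraries, which had a median of 0.0767. The number of other libraries as close ran from 1 of 95 for number 1 to 41 of 94 for number 10.

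In the chromosome 14 stretch the Pilot levels were 0.533, 0.468, 0.392, 0.503, 0.410 and 0.394 and the CHYB6 levels over the same 147 positions 0.485, 0.499, 0.477, 0.455, 0.409 and 0.402. The largest difference, 0.0852 for number 6, was wider than the distance between the quartiles of the 95 libraries. The median absolute difference within a number was 0.0395, against 0.0383 to other libraries, and 4 of 6 pairs were closer than the median to other libraries. In the first run of the stretch, the library that was highest in the main table, Pilot number 7 at 0.596, was at 0.380 in the CHYB6 library of that number. No group labels tie these libraries to samples, and no test is given.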

How the data were processed

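Per the labels' protocols, whole-blood DNA was sheared, ligated, bisulfite converted and captured with Roche SeqCap Epi. Bowtie2 2.1.0, Bismark 0.14.3 and Trim Galore are listed in the submitters' processing notes, as is CanFam3.1, with no order of steps. The authors deposited a methylation fraction per listed position and library, with no counts or coverage, so no coverage minimum could be set. Most fractions have 2 decimals. Values with more were treated as filled in (a median of 0.0404% per library, 0.920% in the windows, and 22.4% in library L1_A7). Coordinates are the first one listed, uncertain by 1 bp. Consecutive coordinates in the repeat table were read as the forward and reverse strand of a CpG.

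Library codes match no label, so all rows stayed without a group and no comparison of age or sex was made. Members and lists were chosen with earlier results of these data known. Regions named from the main table are every run (at least 10 positions, gaps up to 100 bp) with a median level from 0.3 to 0.7, the nearest run on each side, and in each window the longest run under 0.1 and over 0.8. Other regions were named after their values were seen. Positions called variant-like had at least 8 libraries under 0.12, 8 from 0.3 to 0.7 and 8 over 0.88, with at most 12 in between. Values within 1e-06 of 1.0 counted as 1.0. Relations across libraries used two-sided permutation tests of Pearson's r and Spearman's rho (100000 resamples), adjusted by Benjamini-Hochberg over 28 relations. The run finder and the test were tested on simulated data. Tools were SciPy 1.17.1, NumPy 2.4.6, Matplotlib 3.10.9 and Python 3.11.15. The table mapped to human probes was not used here.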

Additional observations from a re-analysis of the deposited data

How the results depend on the processing

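With intermediate bounds of 0.4 to 0.6 the share of positions was 55.6% on chromosome 14 and 8.01% on chromosome 18, and with 0.2 to 0.8 it was 18.99% on chromosome 18. The number of intermediate runs on chromosome 18 was 2, in place of 1, with runs of at least 5 positions and with gaps up to 200 bp. On chromosome 14 it was 7 and 5, in place of 6. Of the relations within chromosome 14, 3 passed in place of 2 with medians over positions, where the median r was 0.0476 in place of 0.102. Only 1 passed with the mean of each code prefix taken out and 0 with the mean of each second code element taken out, a setting chosen after seeing the data, and of those with the library mean 0 passed under the latter. The median r between the chromosomes was 0.106 with medians over positions and 0.111 with the second-element means taken out. Run levels moved by less than their spread over libraries without filled-in values, with 1.0 set to 0.01 and without library L1_A7. Causes were not tested. No paired analysis was possible because library codes match no label, so no fit between labelled groups exists. Libraries that share a number were set side by side as values only. Depth is unknown, so how far counting error sets the spread of short runs could not be measured.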
